A study of Mus musculus with 12 samples.

Results

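Malat1, Neat1, Miat, Gas5, Tug1 and Snhg11 are long noncoding RNAs (lncRNAs), transcripts that mostly act as RNA and not through a protein. They were taken by symbol from the deposited table of normalised read counts, in which they are 6 of 34193 rows. All 6 had a mean of at least 10 normalised counts and so were among the 14397 genes tested. The libraries came from the cerebral cortex of mice aged 8 weeks. The 6 cKO libraries had the genotype Nsd1 flx/flx with Nestin-cre +/-, and the 6 ctrl libraries had Nsd1 flx/flx with Nestin-cre -/-. Both groups thus carried the same loxP-flanked Nsd1 alleles, and only the cKO mice carried the Cre transgene. The table's headers name the ctrl group wt. NSD1 is a histone methyltransferase of lysine 36 of histone H3. Nestin-Cre acts in the neural lineage, so neurons, astrocytes and oligodendrocytes are recombined while microglia and most vascular cells are not. The ctrl group carried no Cre, so an effect of the transgene itself cannot be told apart from that of the deletion. The sample titles call the replicates biological (biorep), but no label ties a replicate to an animal. Each p-value thus reflects only how far the 12 samples spread, which may be partly technical.

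Malat1 is held in nuclear speckles, bodies that store splicing factors. Neat1 is the scaffold of paraspeckles, and Miat, also called Gomafu, stays in the nucleus of neurons in further foci. Gas5 and Snhg11 are host genes whose introns release small nucleolar RNAs (snoRNAs), while Tug1 is expressed widely in brain and is found in both nucleus and cytoplasm. Libraries made from total RNA after removal of ribosomal RNA sample nuclear transcripts as well as cytoplasmic ones, and they do not depend on a poly(A) tail. That matters for Malat1 and for the long form of Neat1, whose mature 3′ ends are not polyadenylated but are cut by RNase P and protected by a triple helix of U-rich stretches and an A-rich tract.

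Those tracts are shown because they are the part of Malat1 and Neat1 that replaces a poly(A) tail. The sequences come from the GENCODE transcripts of build GRCm38, in the sense direction, and capitals mark T-rich runs and A-rich tracts as a script found them. Runs were 3 or more T, then 1 or 2 of C or G, then 3 or more T, and were counted only in the windows printed below. The A-rich tract was the last one found in each transcript. Malat1 had 3 such runs in its window and an A-rich tract of 18 bases at positions 6674 to 6691 of its longest transcript, which continued for 292 bases beyond it. Neat1 had 2 runs in its window and an A-rich tract of 11 bases at the very end of its longest transcript, at positions 20761 to 20771.
Malat1, bases 6574 to 6696: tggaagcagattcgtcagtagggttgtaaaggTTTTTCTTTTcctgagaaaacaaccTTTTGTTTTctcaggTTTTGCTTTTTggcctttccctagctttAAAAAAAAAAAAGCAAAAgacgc
Neat1, bases 20661 to 20771: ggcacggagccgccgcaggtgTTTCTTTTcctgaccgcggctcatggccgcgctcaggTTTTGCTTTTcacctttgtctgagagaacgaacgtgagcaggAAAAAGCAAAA
Miat is known for repeats of ACTAAC, which resemble the branch point of introns and bind the splicing factor SF1. The longest Miat transcript held 11 matches of ACTAAC on its sense strand, or 1.20 per kb. Only 250 of 68537 mouse transcripts of at least 1000 bases (0.365%) had that density or more. Neat1 had 4 matches, Tug1 and Snhg11 had 1 each, and Malat1 and Gas5 had 0. The window of 150 bases with most matches is printed with its 4 copies in capitals.
Miat, bases 4923 to 5072: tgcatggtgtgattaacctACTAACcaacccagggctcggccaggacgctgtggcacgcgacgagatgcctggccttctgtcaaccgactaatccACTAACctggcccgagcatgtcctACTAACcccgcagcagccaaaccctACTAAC

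Across the whole table, reads assigned to genes numbered 14.6 to 27.0 M per cKO library and 10.5 to 21.1 M per ctrl library. Mitochondrial ribosomal RNA took 14.2% of them in ctrl library 4 and 11.5% in ctrl library 5, against 1.46% to 6.00% in the other 10. Nsd1 itself averaged 3251 ± 299 normalised counts in cKO libraries and 4235 ± 850 in ctrl libraries (SD, n = 6 each). Its cKO values ran from 2853 to 3617 around a median of 3247, and its ctrl values from 3214 to 5269 around 4437. The Nsd1 difference was -0.36 on the log2 scale (SE 0.12), which missed the threshold (limma adjusted p = 0.383). The count covers the whole gene, and reads over the floxed part alone were not analysed here. Reads from 4 Y-linked genes summed to more than 100 normalised counts in libraries 1 to 3 of each genotype, here called libraries with Y-linked reads, and to at most 3.09 in libraries 4 to 6. Defining markers of cortical excitatory neurons were abundant in every library, summing to 88948 to 108198 normalised counts in cKO and 102044 to 117992 in ctrl libraries.

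None of the 6 lncRNAs differed between cKO and ctrl cortex beyond the spread of the libraries. By limma over all tested genes, 0 of 6 were called at an adjusted p under 0.05, and 0 of 6 had an unadjusted p under 0.05. Over all tested genes 120 (0.834%) were called and 1401 (9.73%) had an unadjusted p under 0.05. edgeR and DESeq2 on the recovered reads also called 0 of 6. Fold changes below are differences of log2(normalised count + 1), cKO minus ctrl, with libraries with and without Y-linked reads as a term. Of the 6, 5 lay below 0 and 1 above, and every 95% interval included 0. Without ctrl libraries 4 and 5, the log2 differences were nearer to 0, at -0.07 for Malat1, -0.15 for Neat1, -0.07 for Miat and -0.06 for Gas5.

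**Figure D1:**
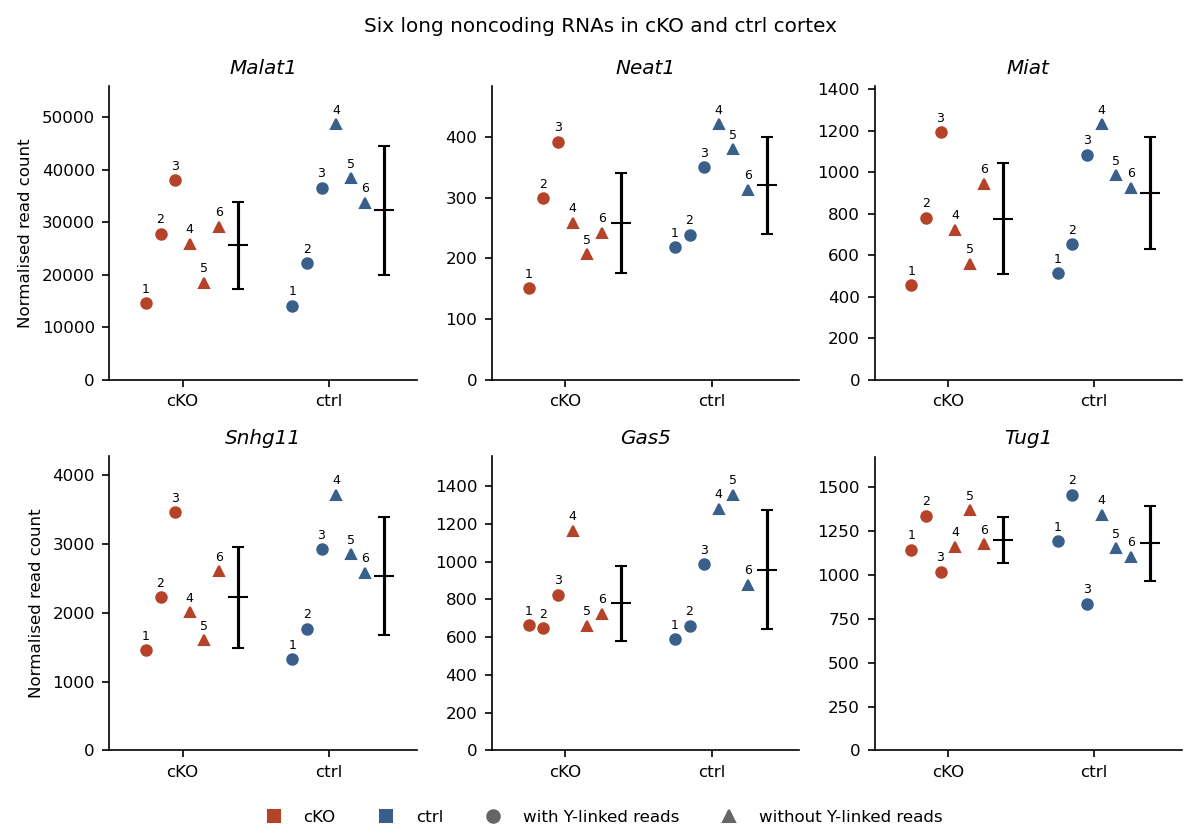
Normalised read counts (y axis) of the 6 lncRNAs in 6 cKO and 6 ctrl libraries (x axis), with library numbers; circles are libraries with Y-linked reads, triangles those without, and bars are mean ± SD. Ranges overlap in every panel, and in Malat1, Gas5, Tug1 and Snhg11 all 6 cKO points lie inside the ctrl range.

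Malat1 was by far the most abundant of them. Its lowest, median and highest values were 14615, 26873 and 38041 normalised counts in cKO libraries, against 14143, 35151 and 48648 in ctrl libraries. All 6 cKO values fell inside the ctrl range, with cKO library 1 and ctrl library 1 lowest, cKO library 3 highest of its group and ctrl library 4 highest of all. Malat1 averaged 25674 ± 8286 in cKO and 32300 ± 12296 in ctrl libraries (SD, n = 6 each), a log2 difference of -0.29 (SE 0.26, 95% interval -0.84 to 0.25; limma adjusted p = 0.664). As a ratio the interval of Malat1 ran from 0.560 to 1.19, so changes of these sizes could not be resolved with 6 libraries a group. Malat1 took 0.0815% to 0.246% of the reads of a library and ranked 26 by mean level in the table.

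Neat1 was the least abundant member. It had 151, 251 and 392 normalised counts as lowest, median and highest in cKO libraries, and 219, 332 and 421 in ctrl libraries. The ranges overlapped, with 4 of 6 cKO values inside the ctrl range and cKO libraries 1 and 5 below it. Neat1 averaged 259 ± 82.3 in cKO and 320 ± 79.4 in ctrl libraries (SD, n = 6 each), a log2 difference of -0.33 (SE 0.20, 95% interval -0.76 to 0.10; limma adjusted p = 0.561). These values do not separate the short polyadenylated form of Neat1 from the long form that builds paraspeckles.

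Miat had 456, 752 and 1194 normalised counts as lowest, median and highest in cKO libraries, and 514, 956 and 1231 in ctrl libraries. The groups overlapped in 5 of 6 cKO values, and cKO library 1 alone lay below the ctrl range. The log2 difference of Miat was -0.22 (SE 0.22, 95% interval -0.70 to 0.26; limma adjusted p = 0.701), with means of 776 ± 267 in cKO and 899 ± 269 in ctrl libraries (SD, n = 6 each).

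Of the snoRNA hosts, Snhg11 is transcribed mainly in neurons. Its lowest, median and highest values were 1457, 2115 and 3460 normalised counts in cKO libraries, against 1327, 2715 and 3711 in ctrl libraries. All 6 cKO values of Snhg11 were inside the ctrl range, and the extremes of both groups stood in the same libraries as those of Malat1. Snhg11 averaged 2225 ± 733 in cKO and 2527 ± 858 in ctrl libraries (SD, n = 6 each), a log2 difference of -0.17 (SE 0.23, 95% interval -0.65 to 0.32; limma adjusted p = 0.783). This difference turned to 0.04 when ctrl libraries 4 and 5, the highest in mitochondrial ribosomal RNA, were left out.

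Gas5, named for its rise in growth-arrested cells, carries a 5′ terminal oligopyrimidine tract (TOP), and its spliced RNA is degraded when translated, through nonsense-mediated decay. Gas5 had 646, 694 and 1162 normalised counts as lowest, median and highest in cKO libraries, and 590, 932 and 1353 in ctrl libraries. All 6 cKO values lay inside the ctrl range, but 5 of them lay at or below 825 and cKO library 4 stood apart at 1162. Gas5 averaged 780 ± 199 in cKO and 958 ± 314 in ctrl libraries (SD, n = 6 each), a log2 difference of -0.26 (SE 0.17, 95% interval -0.62 to 0.09; limma adjusted p = 0.571).

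Tug1 varied least. It had 1019, 1168 and 1372 normalised counts as lowest, median and highest in cKO libraries, and 838, 1173 and 1458 in ctrl libraries. The medians of Tug1 differed by less than its range within either group, and all 6 cKO values were inside the ctrl range. Tug1 averaged 1202 ± 131 in cKO and 1182 ± 213 in ctrl libraries (SD, n = 6 each), a log2 difference of 0.04 (SE 0.12, 95% interval -0.21 to 0.29; limma adjusted p = 0.914). The authors' deposited table also gave all 6 an adjusted p above 0.05, the lowest being 0.726 for Gas5 and 0.754 for Neat1.

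**Figure D2:**
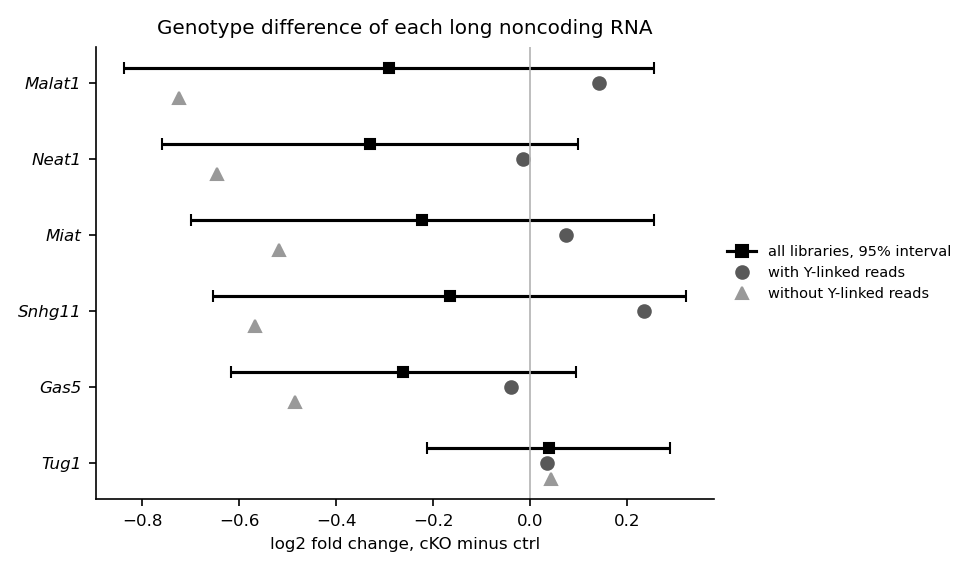
log2 fold change (x axis, cKO minus ctrl) of each lncRNA (y axis) over all 12 libraries with its 95% interval (squares), and within the libraries with (circles) and without (triangles) Y-linked reads. Every interval includes 0, and for 5 of the 6 the triangle lies left of the circle, for example -0.72 against 0.14 for Malat1.

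Within the 6 libraries without Y-linked reads 5 of the 6 lncRNAs lay further below 0 than in the others. Malat1 averaged 24525 normalised counts in cKO and 40263 in ctrl libraries there (n = 3 each), a log2 difference of -0.72, against 26823 in cKO and 24338 in ctrl libraries with Y-linked reads (n = 3 each), a log2 difference of 0.14. The difference between these 2 effects for Malat1 was 0.87 (SE 0.48, 95% interval -0.15 to 1.88; limma adjusted p = 0.574). Neat1, Miat, Gas5 and Snhg11 had log2 differences of -0.65, -0.52, -0.48 and -0.57 in libraries without Y-linked reads, and -0.01, 0.07, -0.04 and 0.24 in those with them. Tug1 had 0.04 in libraries without and 0.03 in those with Y-linked reads. No lncRNA passed the test of the difference between the sets, nor did any gene of the 14397 (0%), of which 1263 had an unadjusted p under 0.05 in limma. The libraries without Y-linked reads include ctrl libraries 4 and 5. The part of mitochondrial ribosomal RNA in these genotype differences was not tested.

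Compared per length, the order of the levels changed. Per kb of the longest GENCODE transcript without a retained intron, Malat1 had 3677 normalised counts in cKO and 4626 in ctrl libraries. Gas5 came next with 1173 in cKO and 1440 in ctrl libraries, on a short spliced transcript of 0.665 kb. Snhg11 followed with 379 in cKO and 431 in ctrl libraries, then Tug1 with 179 in cKO and 176 in ctrl libraries. Miat had 84.7 per kb in cKO and 98.1 in ctrl libraries, and Neat1, at 20.771 kb the longest, had 12.5 in cKO and 15.4 in ctrl libraries. Over the 12 libraries these per-kb levels ran from 2025 to 6967 for Malat1, 887 to 2035 for Gas5, 226 to 633 for Snhg11, 125 to 217 for Tug1, 49.8 to 134 for Miat and 7.29 to 20.3 for Neat1. Of neighbours in this order, the ranges of Malat1 and Gas5 and those of Tug1 and Miat overlapped, and the other 3 pairs did not. The place of Gas5 rests on its length, since the union of its exons in all transcripts, 3.76 kb, gives a mean of 231. By exon union the means were 279 for Snhg11, 122 for Tug1 and 90.2 for Miat. Neat1 was divided by the length of its long form, although reads of its short form were not separated. The submitters' notes name the build mm9, and the sources used here do not give the gene models behind the counts.

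Levels of most of the lncRNAs spread widely between libraries, also within a group. Within cKO and ctrl libraries the highest exceeded the lowest 2.59-fold and 1.92-fold for Neat1, and 2.62-fold and 2.39-fold for Miat. Over both genotypes, the highest of the 12 libraries exceeded the lowest 3.44-fold for Malat1, 2.80-fold for Snhg11, 2.78-fold for Neat1, 2.70-fold for Miat, 2.29-fold for Gas5 and 1.74-fold for Tug1. After genotype and the Y-linked term, the residual SD on the log2 scale was 0.56 for Malat1, 0.51 for Snhg11, 0.50 for Miat, 0.43 for Neat1, 0.36 for Gas5 and 0.23 for Tug1, against a median of 0.20 over all tested genes. Among the 500 genes nearest in level, the residual SD of Snhg11 stood at percentile 99.8, that of Miat at 99.6, Malat1 at 98.6, Neat1 at 97.6, Gas5 at 96.4 and Tug1 at 81.4. These percentiles are descriptions and carry no test.

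**Figure D3:**
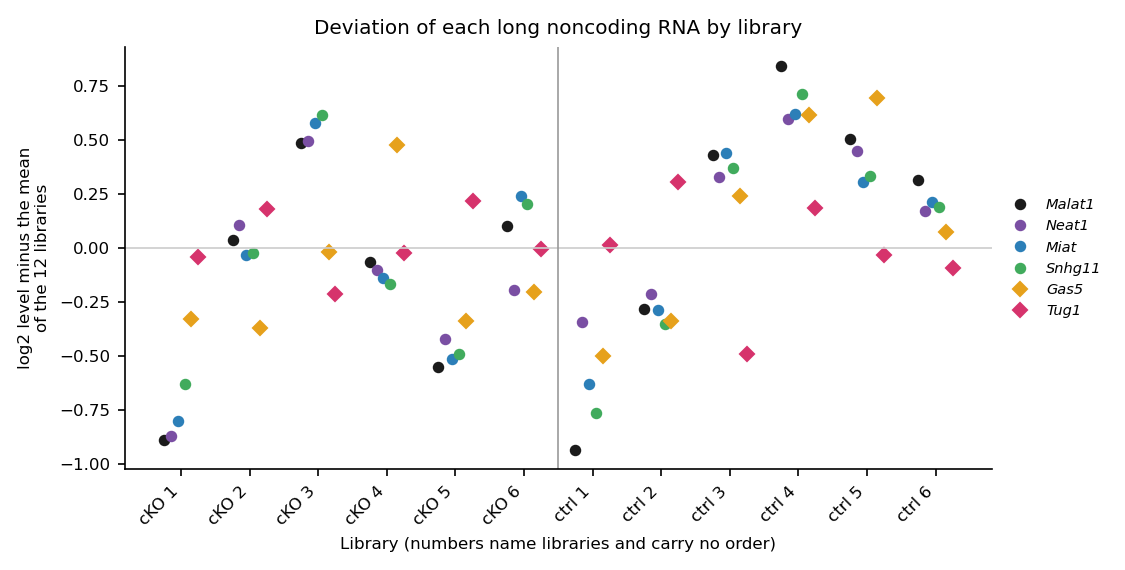
Deviation of each lncRNA (y axis, log2 level minus its mean over the 12 libraries) in each library (x axis); circles are Malat1, Neat1, Miat and Snhg11, diamonds Gas5 and Tug1. The 4 circles lie on the same side of 0 in 10 of 12 libraries, high together in cKO library 3 and ctrl library 4, low together in cKO library 1 and ctrl library 1.

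Malat1, Miat and Snhg11 kept nearly constant ratios while their levels moved. The SD of the log2 ratio over the 12 libraries was 0.08 for Miat to Snhg11, 0.14 for Malat1 to Snhg11 and 0.15 for Malat1 to Miat, although log2 Malat1 itself had an SD of 0.57. The log2 ratio of Malat1 to Tug1 had an SD of 0.66. Of the 15 pairs of members, Pearson's r was 0.99 for Miat with Snhg11 (Spearman's rho 0.99), 0.98 for Malat1 with Snhg11 (rho 0.97) and 0.98 for Malat1 with Miat (rho 0.97). Each of these 3 had a permutation p of r of 1e-05, the smallest that 100000 permutations can give, and 3e-05 after Benjamini-Hochberg adjustment over the 15 pairs (n = 12). Without the 2 libraries farthest from the median on the x axis, the 3 values of r were 0.99, 0.97 and 0.96. Within the 6 libraries with and the 6 without Y-linked reads, r lay between 0.97 and 0.99 for all 3 pairs.

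Neat1 was less tightly tied to the same RNAs, with r of 0.93 to Malat1 (rho 0.95), 0.93 to Miat (rho 0.94) and 0.90 to Snhg11 (rho 0.93); adjusted permutation p of r was 3e-05, 3e-05 and 0.000275 (n = 12). For Neat1 with Malat1, r was 0.95 without the 2 farthest libraries, 0.93 with Y-linked reads and 0.96 without. Gas5 correlated with Malat1 at r = 0.75 (rho 0.78, adjusted permutation p of r 0.0118, n = 12), and at 0.69 without the 2 farthest libraries. That relation was uneven, with r of 0.36 among the 6 cKO and 0.92 among the 6 ctrl libraries, and the difference between these was not tested. Gas5 was high in cKO library 4, where Malat1 was not. Tug1 did not follow Malat1, with r of -0.28 (rho -0.34, adjusted permutation p of r 0.387, n = 12). With the means of each genotype and Y-linked set removed, r was 0.63 for Gas5 with Malat1 and 0.93 for Neat1 with Malat1. It was then 0.98 for Malat1 with Miat and with Snhg11, and 0.99 for Miat with Snhg11. The permutations shuffled all 12 libraries freely. Some same-numbered libraries of the 2 genotypes were alike, so permutation p-values here and below may be too small. All values share each library's depth and scaling, so these are relations within this set of libraries.

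**Figure D4:**
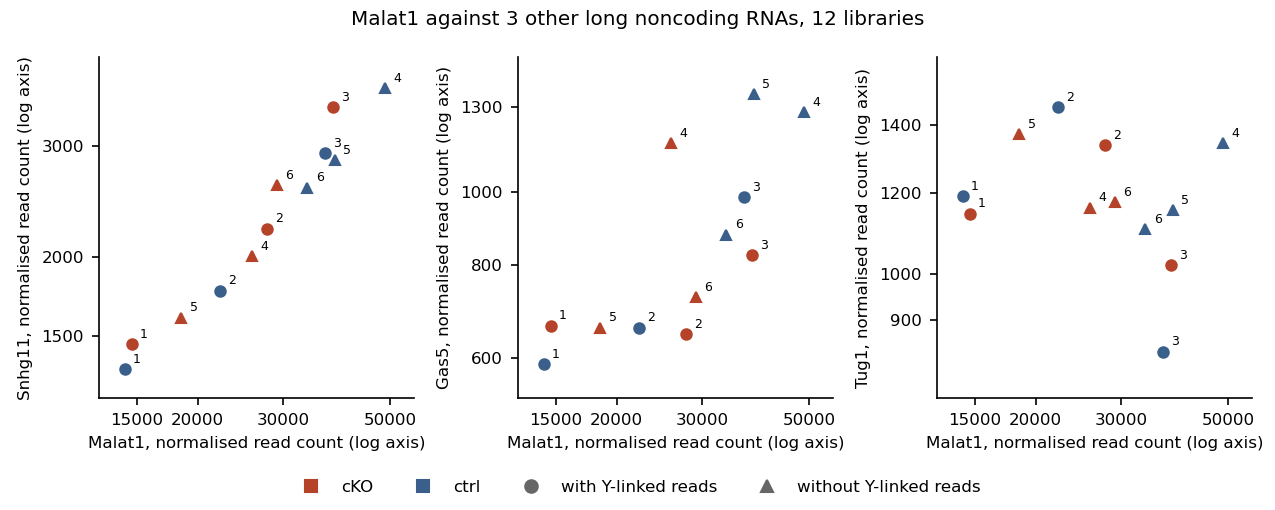
Normalised counts of Snhg11, Gas5 and Tug1 (y axes, log scale) against Malat1 (x axes, log scale) in 12 libraries; colours are genotypes, circles libraries with and triangles without Y-linked reads, numbers name libraries. Snhg11 follows Malat1 along a line with cKO and ctrl libraries mixed (r = 0.98), Gas5 more loosely (r = 0.75) and Tug1 not (r = -0.28).

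Few genes tracked the nuclear lncRNAs as closely as they tracked each other. Genes compared were the 11390 that averaged 50 normalised counts or more and are not named as predicted models. The other members were among them, so the counts of genes include members. The nearest to Malat1 over the 12 libraries were Snhg11 (r = 0.98), Miat (0.98) and Wsb1 (0.97), which encodes a ubiquitin ligase substrate receptor. Only 18 genes (0.158%) had r above 0.9 with Malat1. For Neat1 the nearest were Malat1 (0.93), D17Wsu92e (0.93) and Miat (0.93), and 5 genes exceeded 0.9. Snhg11 and Miat were nearest to each other (0.99), then to Malat1 (0.98) and to Meg3 (0.97), a maternally expressed lncRNA of the imprinted Dlk1-Dio3 region. Gas5 was like many more genes, with 308 (2.70%) above 0.9, led by the centrin genes Cetn3 (0.99) and Cetn2 (0.98) and by Thoc7 (0.98), a subunit of the mRNA export complex THO. Tug1 had 48 genes above 0.9 and was nearest to the RNA-binding protein gene Celf2 (0.98), the phosphate exporter gene Xpr1 (0.96) and Rictor (0.95), a subunit of mTOR complex 2. Inverse relations were as strong, with a lowest r of -0.94 for Malat1, -0.96 for Neat1 and -0.99 for Gas5. These are descriptions over 12 libraries that share depth and composition.

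The start regions of Malat1, Miat and Snhg11 are shown because these RNAs moved together. RefSeq windows of 250 bases before to 50 after the start, build GRCm38.p6, were found for 5 of 6 members, and Gas5 had 2. Capitals mark CG dinucleotides. Malat1 had 10, Miat 25 and Snhg11 21, against a median of 7 over 32851 windows. Of all windows, 56.5% had fewer CG than Malat1, 81.6% fewer than Miat and 75.2% fewer than Snhg11. The Tug1 window had 37 CG, more than 94.4% of all windows, and those of Gas5 had 33 and 19.
Malat1, chr19:5802623-5802922, minus strand: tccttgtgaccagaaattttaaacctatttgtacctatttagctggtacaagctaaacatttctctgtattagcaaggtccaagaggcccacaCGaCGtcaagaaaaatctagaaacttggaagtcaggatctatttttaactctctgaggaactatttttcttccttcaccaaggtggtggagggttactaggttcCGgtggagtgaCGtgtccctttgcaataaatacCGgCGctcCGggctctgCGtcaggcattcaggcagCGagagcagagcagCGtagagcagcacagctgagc
Miat, chr5:112228899-112229198, minus strand: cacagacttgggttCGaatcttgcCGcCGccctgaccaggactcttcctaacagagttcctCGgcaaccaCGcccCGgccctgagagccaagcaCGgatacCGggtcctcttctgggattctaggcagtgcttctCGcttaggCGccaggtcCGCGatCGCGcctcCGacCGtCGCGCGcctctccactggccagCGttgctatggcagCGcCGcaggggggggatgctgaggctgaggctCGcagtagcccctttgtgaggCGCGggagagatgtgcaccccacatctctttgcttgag
Snhg11, chr2:158375463-158375762, plus strand: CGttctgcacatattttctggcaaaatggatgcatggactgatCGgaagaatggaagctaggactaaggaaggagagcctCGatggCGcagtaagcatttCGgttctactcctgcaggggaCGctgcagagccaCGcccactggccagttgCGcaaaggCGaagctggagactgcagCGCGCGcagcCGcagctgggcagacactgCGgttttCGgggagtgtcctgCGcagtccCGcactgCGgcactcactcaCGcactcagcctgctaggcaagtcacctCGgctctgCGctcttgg
On either strand, tataaa occurred in none of the 6 windows and in 13.62% of all windows, and ccaat in none of the 6 and in 37.41%. The letters gggcgg stood in the windows of Miat, Tug1 and Gas5 but not in those of Malat1 and Snhg11, and in 35.66% of all windows. The cAMP response element tgacgtca stood in 1 window of Gas5 and in 1.79% of all.

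Other lncRNAs were described from a list of 35, of which 26 were in the table and 19 were tested. None was called, 14 lay below 0 and 5 above, and their median log2 difference was -0.19, against -0.0007 and 7218 of 14397 below 0 for all tested genes. That median was -0.003 without ctrl libraries 4 and 5, where 10 of 19 lay below 0. By level, the foremost were Rian, Meg3 and Oip5os1. Rian, from the same imprinted region as Meg3, averaged 3938 ± 199 normalised counts in cKO and 4535 ± 1050 in ctrl libraries (SD, n = 6 each; limma adjusted p = 0.565). Meg3 averaged 3704 ± 1364 in cKO and 4190 ± 1374 in ctrl libraries (limma adjusted p = 0.776, n = 6 each), and Oip5os1, also called Cyrano, 2009 ± 149 in cKO and 2013 ± 274 in ctrl libraries (SD, n = 6 each). Over the 12 libraries 18 of 19 correlated positively with Malat1, with a median r of 0.77, against -0.02 for all tested genes.

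A listed lncRNA below the filter is named here after its values were seen. Lncenc1, under the row Gm11019, had 7 to 18 reads in each cKO library and 0 to 4 in each ctrl library. It averaged 10.4 ± 2.5 normalised counts in cKO and 1.35 ± 1.80 in ctrl libraries (SD, n = 6 each). Without the filter on low values limma gave Lncenc1 a log2 difference of 2.59 and an adjusted p of 0.00611, and the authors' deposited table gives 3.05 and 0.00132. Of the 19997 rows above 0 in some library, limma without the filter called 150. The authors' adjusted p was under 0.05 for 178 of 19650. In mouse embryonic stem cells Lncenc1 is known for a role in glycolysis.

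Genes that act with these RNAs were described from further lists. Of 18 other snoRNA host genes tested, 0 were called, 15 lay below 0 and 3 above, and the median log2 difference was -0.34, or -0.08 without ctrl libraries 4 and 5. The most abundant was Eif4a2, a translation initiation helicase, with 9453 ± 1837 normalised counts in cKO and 10454 ± 1870 in ctrl libraries (SD, n = 6 each; limma adjusted p = 0.644). Snhg4 followed with 820 ± 326 in cKO and 2014 ± 1659 in ctrl libraries (limma adjusted p = 0.476). Nop56, which encodes a core protein of snoRNA particles, had 662 ± 70.0 in cKO and 637 ± 62.8 in ctrl libraries (limma adjusted p = 0.819). The spread of Snhg4 in ctrl libraries, from 721 to 4153, was wider than that of Eif4a2 or Nop56 relative to their means. Unadjusted p fell under 0.05 in 6 of the 18 (33.3%), in 4 of the 19 other lncRNAs (21.1%) and in 44 of 78 cytosolic ribosomal protein genes (56.4%), against 9.73% of all tested genes. Genes of a list can move together over the same libraries, so these counts are descriptions and carry no test. They were not taken without ctrl libraries 4 and 5.

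Paraspeckles are built by proteins on the Neat1 scaffold. Of 14 such genes tested, 12 lay above 0 and 2 below, 0 were called, and the median log2 difference was 0.12, or 0.001 without ctrl libraries 4 and 5. Matr3, a nuclear matrix protein, averaged 8527 ± 1214 normalised counts in cKO and 7798 ± 854 in ctrl libraries (limma adjusted p = 0.639, n = 6 each). Hnrnpk averaged 4692 ± 548 in cKO and 4341 ± 438 in ctrl libraries (limma adjusted p = 0.646), and the chromatin remodeller Smarca4 3238 ± 214 in cKO and 2910 ± 524 in ctrl libraries (limma adjusted p = 0.531). Of 18 nuclear speckle proteins, 16 lay above 0 and 2 below, 0 were called, and the median was 0.09, or 0.07 without ctrl libraries 4 and 5. The splicing proteins Srrm2, Son and Sf3b1 led by level, with log2 differences of 0.05, 0.11 and 0.17 (limma adjusted p = 0.919, 0.662 and 0.549, n = 6 each).

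RNase P cuts the 3′ ends of Malat1 and of the long form of Neat1, and RNase Z was listed with it. Of their 11 genes tested, 0 were called, 4 lay above 0 and 7 below. Pop5, Rpp14 and Elac2 had log2 differences of -0.25, -0.10 and 0.07 (limma adjusted p = 0.527, 0.689 and 0.747, n = 6 each). Of 4 known partners of Miat, 0 were called. Qk, Srsf1 and Sf1, which binds ACTAAC, had log2 differences of -0.04, 0.17 and 0.15 (limma adjusted p = 0.914, 0.536 and 0.534, n = 6 each). Of 10 nonsense-mediated decay factors, which limit Gas5, 7 lay above 0, 3 below and 0 were called. Smg1 and Smg5 had log2 differences of 0.21 and -0.03 (limma adjusted p = 0.608 and 0.883, n = 6 each).

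**Figure D5:**
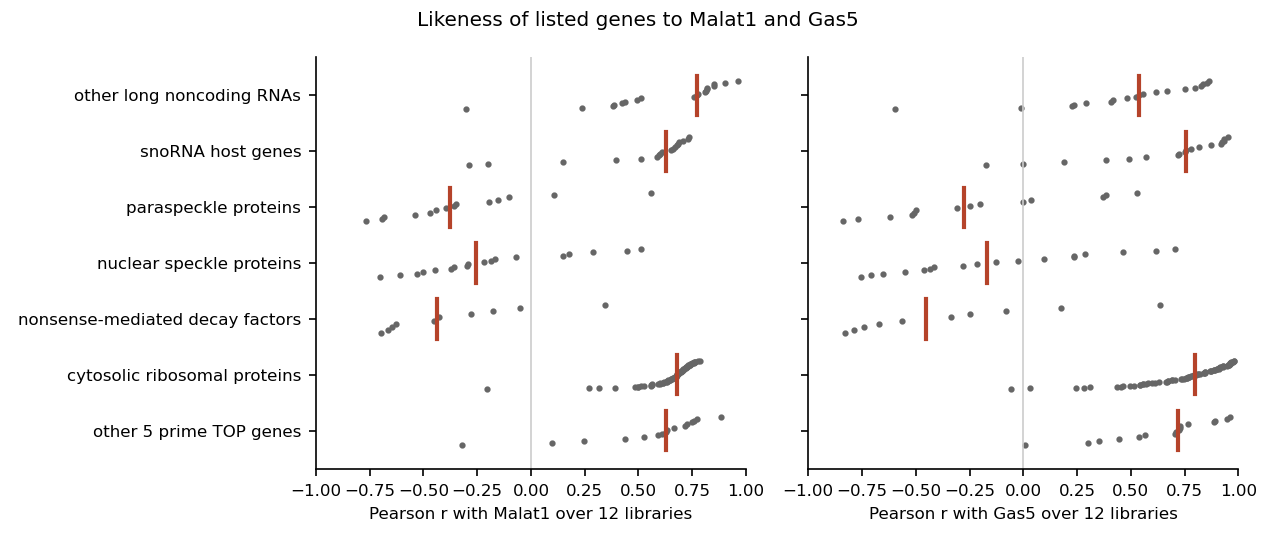
Pearson r over 12 libraries (x axes) of each tested gene of 7 lists (y axis) with Malat1 (left) and Gas5 (right); grey points are genes and the red bar is the list's median. Other lncRNAs have a median of 0.77 with Malat1, cytosolic ribosomal protein genes one of 0.80 with Gas5, and paraspeckle proteins lie mostly left of 0.

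Several library measures moved with the lncRNAs. Of 36 relations computed between 12 measures and Malat1, Gas5 and Tug1, the mean log2 level of 4 oligodendrocyte markers correlated with Malat1 at r = 0.83 (rho 0.82, adjusted permutation p of r 0.00677, n = 12). It was 0.74 without the 2 farthest libraries, 0.70 within libraries with Y-linked reads and 0.96 within those without. All 4 of these markers were tested, 0 were called, and their sum ran from 59247 to 83346 normalised counts in cKO and from 58025 to 111210 in ctrl libraries. The mean log2 level of interneuron markers ran the other way, with r of -0.77 to Malat1 (rho -0.76, adjusted permutation p of r 0.0181, n = 12). That of 5 excitatory neuron markers gave r of -0.65 (rho -0.72, adjusted permutation p 0.0663 of r and 0.0291 of rho, n = 12). Of these 5, 1 correlated positively with Malat1, Camk2a (r = 0.82). The mean log2 level of 4 astrocyte markers gave r of 0.41 to Malat1 (rho 0.44, adjusted permutation p of r 0.313, n = 12). That r was 0.73 among the 6 cKO and 0.87 among the 6 ctrl libraries. Within libraries with Y-linked reads it was 0.52, and within those without -0.09. The part of the cell type markers in the spread of Malat1 was not tested. In bulk cortex, fewer cells of a type and less RNA per cell cannot be told apart. Depth correlated with Malat1 at r = -0.64 (rho -0.75; adjusted permutation p 0.0676 of r and 0.0235 of rho, n = 12), at -0.28 within libraries with Y-linked reads and -0.93 within those without. The percentage of mitochondrial ribosomal RNA gave r of 0.53 to Malat1 (rho 0.38, adjusted permutation p of r 0.142, n = 12). It was 0.03 without the 2 farthest libraries, -0.34 within libraries with Y-linked reads and 0.83 within those without. To Gas5 the same percentage gave r of 0.61 (rho 0.30, adjusted permutation p of r 0.0764, n = 12), and -0.21 without the 2 farthest libraries.

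Gas5 moved with other TOP genes, whose mean log2 level gave r = 0.91 (rho 0.90, adjusted permutation p of r 0.00198, n = 12), 0.78 without the 2 farthest libraries, 0.93 within libraries with Y-linked reads and 0.86 within those without. Of 16 such genes 0 were called and 13 lay below 0, as did 77 of 78 cytosolic ribosomal protein genes, of which 0 were called. The median log2 difference of the ribosomal protein genes was -0.38, or -0.11 without ctrl libraries 4 and 5, in which their mean log2 level stood 0.75 and 0.81 above that of the 12 libraries. Their mean log2 level correlated with Gas5 at r = 0.81 (rho 0.80, adjusted permutation p of r 0.00993, n = 12) but at 0.50 without the 2 farthest libraries. Among the 6 cKO libraries that r was -0.02 and among the 6 ctrl libraries 0.98, and the difference between these was not tested. These relations were not particular to Gas5. Malat1 gave r = 0.76 with the other TOP genes (rho 0.80, adjusted permutation p of r 0.0203, n = 12). With the ribosomal protein genes Malat1 gave r = 0.71 (rho 0.80, adjusted permutation p of r 0.0340, n = 12). Gas5 also correlated with the mean log2 level of interneuron markers at r = -0.94 (rho -0.92, adjusted permutation p of r 0.00108, n = 12). With that of excitatory neuron markers r was -0.85 (rho -0.90, adjusted permutation p of r 0.00677, n = 12), though Camk2a alone gave 0.60. With that of oligodendrocyte markers r was 0.74 (rho 0.82, adjusted permutation p of r 0.0296, n = 12), and 0.52 without the 2 farthest libraries. With that of astrocyte markers r was 0.41 (rho 0.39, adjusted permutation p of r 0.313, n = 12). Among the 6 cKO libraries the astrocyte r was 0.82 and among the 6 ctrl libraries 0.94. With depth r was -0.84 (rho -0.89, adjusted permutation p of r 0.00677, n = 12). Tug1 correlated with the mean log2 level of 2 oligodendrocyte precursor markers at r = 0.77 (rho 0.73, adjusted permutation p of r 0.00993, n = 12). That r was 0.68 without the 2 farthest libraries, 0.92 within libraries with Y-linked reads and 0.82 within those without. Singly, Pdgfra gave 0.41 and Cspg4 0.66, against 0.76, 0.43 and 0.34 for the interneuron markers Gad2, Gad1 and Slc32a1. Of the markers of 8 cell types, 1 gene was called, the astrocyte water channel gene Aqp4, with 3035 ± 284 normalised counts in cKO and 2109 ± 297 in ctrl libraries (SD, n = 6 each; log2 difference 0.53, limma adjusted p = 0.00973).

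Malat1 and Neat1 adjoin each other on chromosome 19, and correlated at r = 0.93 over the 12 libraries. Frmd8, beyond Neat1, had a log2 difference of -0.03 (limma adjusted p = 0.906, n = 6 each) and an r of 0.53 with Neat1. Ralgapb, beside Snhg11, had 0.08 (limma adjusted p = 0.780, n = 6 each) and an r of -0.55 with Snhg11. Morc2a, whose annotation overlaps Tug1 on the opposite strand, had 0.24 (limma adjusted p = 0.482, n = 6 each) and an r of 0.36 with Tug1. Zbtb37 overlaps Gas5 on the opposite strand and had a log2 difference of -0.06 and an r of 0.41 with Gas5. Cenpl, next to Gas5, had a log2 difference of -0.30 (limma adjusted p = 0.571, n = 6 each) and an r of 0.64 with Gas5. Lbp, on the other side of Snhg11, had a log2 difference of -0.21 (limma adjusted p = 0.672, n = 6 each) and an r of 0.14 with Snhg11. Snord47, inside Gas5, averaged 0.284 normalised counts in cKO and 1.74 in ctrl libraries (n = 6 each), below the filter. The sources used here do not say whether reads were counted by strand, so such pairs may share reads.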

How the data were processed

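Total RNA of 12 cortex samples was depleted of ribosomal RNA and sequenced from 250 ng each, per the labels' protocols. Tools listed in the submitters' processing notes are bedtools, STAR, Bowtie and Trim Galore, with the build mm9. Per the file headers, the deposited signal is read counts normalised by the authors with DESeq2. All 208284 values above 0 (100%) were whole multiples of 1 read per library within 0.01 reads, and these whole reads were used for edgeR and DESeq2. Per gene, the authors also deposited the log2 fold change, its standard error, the Wald score, the p-value and the adjusted p-value.

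Columns were tied to a genotype only, since Y-linked reads (a sum above 100 over Uty, Kdm5d, Ddx3y and Eif2s3y) go against the same-numbered sex label in 8 of 12. A DESeq2 fit with genotype and that split gave the authors' log2 fold changes within 9.2e-09. Differences were tested two-sided by limma with a trend on intensity, on log2(normalised count + 1), for the 14397 genes averaging 10 or more, with genotype and the Y-linked split, Benjamini-Hochberg adjusted over all genes and called under 0.05; this scale understates the change of low genes. It was tested on simulated data. Pairs of replicates differed beyond sampling noise (chi-square divided by its degrees of freedom ran from 7.03 to 169 in 30 pairs), so none was counted as a repeat. Depth was 10.5 to 27.0 M reads, and counting error at the members' levels is small beside the spread between libraries.

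The members, the gene lists and the tests were chosen with earlier results of these data known. Named genes were the members, called genes of the lists or otherwise up to 3 per list by level, the 3 genes most correlated with each member, and neighbouring genes; 2 genes this rule names are not reported here. Correlations used log2(normalised count + 1), with 100000 permutations that shuffled the 12 libraries freely. Alternatives were the pseudocount, the filter, TMM or quantile scaling, array weights, edgeR, DESeq2, no Y-linked term, the column number as a block, and left-out libraries. List medians without ctrl libraries 4 and 5 were added after the data had been seen. Transcripts came from GENCODE M21 and promoter windows from RefSeq. Versions were R 4.3.3, limma 3.58.1, edgeR 4.0.16 and DESeq2 1.42.0.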

Additional observations from a re-analysis of the deposited data

Results flagged for a closer look

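Gas5 in cKO library 4 was the only value of 12 groups examined (6 lncRNAs in 2 genotypes) that stood apart from its group. It was 1162 normalised counts, against 646 to 825 in the other 5 cKO libraries. The gap to the nearest value was 0.654 of the group's range, above Dixon's 95% critical value for 6 samples. Chance passes that value in about 1 of 20 groups. The same library was not high in Malat1, at 25932, nor in Tug1, at 1161, and the cause was not tested.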

How the results depend on the processing

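Across 24 alternatives each, Malat1, Neat1, Miat and Gas5 had a log2 difference below 0 and no member was called under any of them. Without ctrl libraries 4 and 5, these 4 differences were -0.067, -0.147, -0.068 and -0.057, against -0.291, -0.330, -0.222 and -0.261 with all 12 libraries. Leaving out each library in turn gave -0.490 to -0.159 for Malat1, -0.495 to -0.192 for Neat1, -0.403 to -0.095 for Miat, -0.353 to -0.166 for Gas5, -0.351 to -0.046 for Snhg11 and -0.058 to 0.119 for Tug1. Tug1 reversed without cKO library 2 (-0.007) and without ctrl library 3 (-0.058), and Snhg11 without ctrl libraries 4 and 5 (0.042). The unadjusted p of Neat1 was 0.0116 without cKO library 3 and that of Malat1 0.0481 without ctrl library 1 (limma adjusted p of Neat1 0.296), and that of Neat1 was 0.0447 with the replicate block. Over all genes, calls numbered 120 in the main test and 58 with a filter at a mean of 50, where fewer genes were tested; single left-out libraries gave 97 to 123, edgeR 119 and DESeq2 178. The cause of the reversals was not tested.

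Same-numbered libraries of the 2 genotypes correlated at 0.25, 0.45, 0.25, 0.03, -0.05 and 0.16 after genotype means were removed, above 0.1 in 4 of 6 pairs. With the means of the Y-linked split also removed, the values were 0.20, 0.47, 0.48, 0.05, -0.09 and 0.06, so the likeness lay in numbers 1 to 3. As it did not hold in every pair and no label ties the numbers to a shared source, the numbers were not taken to pair the libraries. With the number as a replicate block 118 genes and no member were called, and Malat1 had the same log2 difference of -0.291 with a smaller SE (0.170 with the block and 0.257 without) and a limma adjusted p of 0.455. The limma adjusted p of Neat1 with the block was 0.391. With genotype means alone removed, numbers 1, 2, 3 and 6 correlated best with their own number, and 4 and 5 did not.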
